A study of Arabidopsis thaliana with 16 samples.

Results

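The 26 genes described here rose at least 2-fold after a jasmonic acid (JA) spray in Arabidopsis thaliana plants with a water-treated seedling stage, while their JA-to-water ratio stayed between 0.8 and its reciprocal in plants that had met JA as seedlings. They were chosen from the deposited depth-scaled counts (CPM, the reads of a gene over all counted reads of the library, times 1000000): the mean of 4 replicates was taken in each group, 0.5 was added, and the largest group mean had to reach 2.5. Of 34262 genes listed, 16514 passed that level and 439 had a ratio of at least 2 with water history. Among those 439, the ratio after JA history was 2 or more in 315 genes (71.8%) and between the window and 2 in 89 (20.3%). It lay within the window in the 26 members (5.92%) and below 0.8 in 9 (2.05%). Both ratios are thus a property of the choice and are given as a description.

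All plants were of the Col-0 ecotype, and rosette leaves were profiled by sequencing of poly(A) RNA in 16 libraries. Seedlings were sprayed at 2 weeks with water or 1 mM JA, called their history here, and again at 5 weeks with water or 0.1 mM JA, called the challenge. The names W_W, W_JA, JA_W and JA_JA give the history first and the challenge second, with 4 replicates each. Leaves were collected 4 hours after the challenge. The water sprays in all groups carried ethanol at the share of the matching JA solution, and every spray held 0.02% Silwet. A library pooled 8 leaves taken from a pair of plants, so it averages over both plants and over all cell types of the leaf. In such bulk tissue, fewer cells of a type and less RNA per cell cannot be told apart.

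JA is a lipid-derived hormone made from plastid fatty acids in response to wounding and insect feeding. Its isoleucine conjugate brings the receptor COI1 together with JAZ repressor proteins, whose breakdown frees MYC-type transcription factors that bind G-box sequences in promoters. In leaves this pathway raises JA synthesis itself and a range of defence products that include glucosinolates and flavonoids.

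Sequencing depth was even, with 32190193 to 34319939 counted reads per library. Levels below are CPM after TMM scaling, which corrects library totals for differences in composition (factors 0.8877 to 1.143), as mean ± SD (n = 4). The labels call the replicates biological, and p-values here set a group difference against the spread between these pooled libraries. Results were repeated without JA_W replicate 1 and W_W replicate 4, the unchallenged libraries with the smallest distance to the opposite history on the first principal component. Of 6 leaf mesophyll markers, 5 were higher after JA history and none was lower by edgeR, averaged over both challenge states. Over the 19224 genes tested, 35.7% were higher and 32.4% lower in that comparison. The summed level of the mesophyll markers was 29800 to 41000 CPM in W_W, 28300 to 39000 in W_JA, 41200 to 52800 in JA_W and 39600 to 52300 in JA_JA. Of the 3 guard cell, 5 dividing cell and 3 trichome markers tested, 2, 4 and 3 were higher after JA history, against the same 35.7% of genes. The trichome marker GL1 had no read in any library. Summed levels of the dividing cell markers were 2.48 to 4.63 CPM in W_W, 3.04 to 3.45 in W_JA, 5.59 to 7.42 in JA_W and 4.07 to 7.81 in JA_JA. Those of the guard cell markers were 38.6 to 56.3, 64.7 to 75.3, 64.6 to 71.4 and 61.0 to 97.6 CPM in the same order. Those of the trichome markers were 6.14 to 6.4, 6.57 to 7.62, 11.2 to 13.6 and 8.1 to 10.1 CPM. The part of these shifts in the history differences below was not tested.

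The members' ratio with water history ran from 2.04 to 8.67 with a median of 2.28. After JA history it ran from 0.861 to 1.247 with a median of 1.14. It was above 1 in 21 of the 26 genes and above 1.2 in 10, so the members crowd the upper side of the window.

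**Figure D1:**
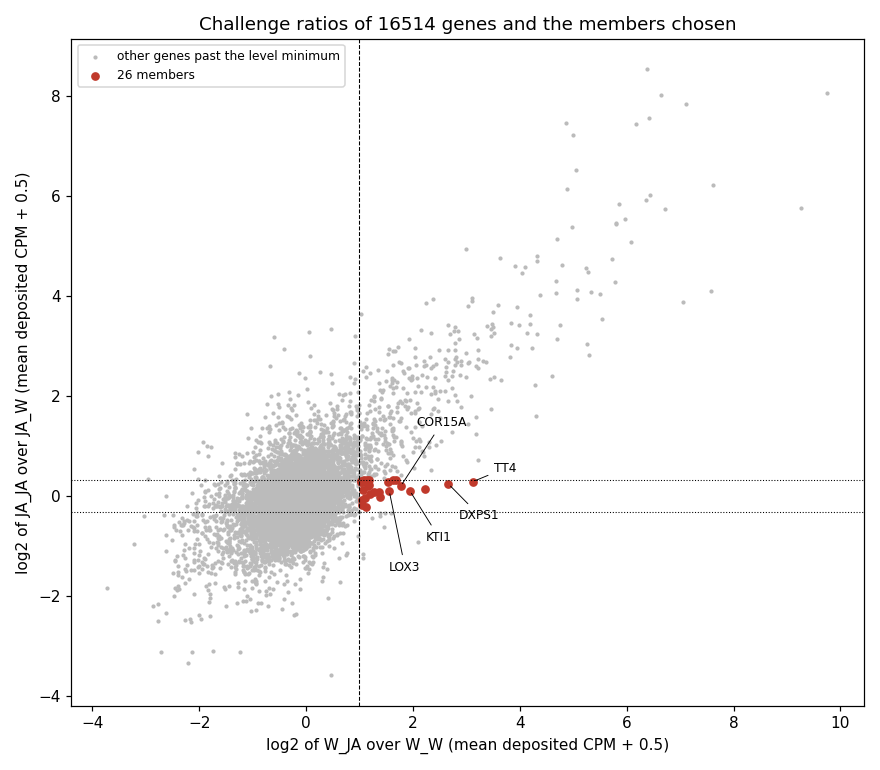
Each point is 1 of 16514 genes past the level minimum, with the log2 ratio of W_JA over W_W on the horizontal axis and that of JA_JA over JA_W on the vertical axis, both from mean deposited CPM plus 0.5. The dashed line marks a ratio of 2, the dotted lines mark 0.8 and its reciprocal, and the 26 members (red) lie to the right of the first and between the others, most of them in the upper part of the window.

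The thresholds cut through a continuous range of ratios. At the lower bound of the water-history ratio, AT5G54930 (2.041), XBCP3 (2.044) and GALS3 (2.06) were just inside, while CYP79F1 (1.994), AT5G50915 (1.96) and AT5G17460 (1.957) were just outside. CYP79F1 is an enzyme of aliphatic glucosinolate synthesis. At the lower bound after JA history AT1G16850 (0.8611), GALS3 (0.8796) and AT3G14395 (0.9423) were inside, while ProT3 (0.7896), AT3G24463 (0.7855) and AT1G51090 (0.7836) were outside. At the upper bound FER1 (1.247), RLP6 (1.246) and AT5G53750 (1.244) were inside, while AK3 (1.252), AT3G61920 (1.265) and AT2G25625 (1.268) were outside. With the window narrowed to between 0.9 and its reciprocal, 10 of the members remained.

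The choice also depends on scaling, since the deposited CPM are divided by library totals alone. On TMM-scaled CPM the same rule gave 34 genes, 16 of them members. The 10 members lost were TT4, AT5G53750, RLP6, FMO GS-OX1, FER1, AT1G76240, CYP707A4, AT3G61490, XBCP3 and AT5G54930, all with a TMM-scaled ratio above the window after JA history. Values after JA history therefore bear on the name of the group: in the fit of all genes with edgeR, a gene being called where its adjusted p was under 0.05, 2 members (AT1G76240 and XBCP3) rose in JA-history plants too, against 15.4% of the 19224 genes tested; XBCP3 was not called without JA_W replicate 1 (adjusted p = 0.052). The other 24 were not called (5 members in all had an unadjusted p under 0.05), and 24 of 26 had an estimate above 0, with a median log2 change of 0.30. The label of a response confined to water history is thus not met by AT1G76240 and XBCP3, and for the rest it says that no rise was called. All 26 were called higher in the challenge of water-history plants, against 13.9% of genes, and 22 had a smaller challenge response after JA history (interaction), against 10.4%. The rule used these contrasts, so nothing is read from those counts.

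Chalcone synthase, which opens the flavonoid pathway, is encoded by TT4 (AT5G13930, chromosome 5, 4488476 to 4490264, plus strand) and had the largest water-history ratio of the members, 8.67. In W_W the 4 libraries held 2.87, 8.01, 7.92 and 9.8 CPM, and in W_JA 75.8, 72.9, 81.0 and 56.4. In JA_W they held 99.2, 189, 130 and 178 CPM, and in JA_JA 142, 264, 206 and 159. All JA_W libraries, which had seen no JA for 3 weeks, were therefore above all freshly challenged W_JA libraries, and the JA_W and JA_JA ranges overlapped. Averaged over both challenge states, TT4 was higher after JA history by 2.91 ± 0.22 (log2 ± SE; edgeR adjusted p = 4.93e-08). Its change in the JA-history challenge was 0.37 ± 0.29 on the log2 scale, with a 95% interval from -0.26 to 1.0. The 250 bases before its annotated start (chr5:4488226-4488475, plus strand) are printed because TT4 carries the largest ratio, with a G-box and an AATATCT match in capitals.
TT4: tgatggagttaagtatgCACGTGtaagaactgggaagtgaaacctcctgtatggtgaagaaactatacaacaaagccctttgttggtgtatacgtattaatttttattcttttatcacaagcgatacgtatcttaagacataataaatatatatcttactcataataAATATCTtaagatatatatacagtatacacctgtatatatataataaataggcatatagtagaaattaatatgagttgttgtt

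Among the other flavonoid genes, F3H and UGT75C1 rose with water history and were not called in the JA-history challenge. Flavanone 3-hydroxylase F3H was at 0.0134 ± 0.0155 CPM in W_W, 0.235 ± 0.0442 in W_JA, 0.485 ± 0.116 in JA_W and 0.393 ± 0.0175 in JA_JA, too low to pass the rule with its offset. It was called in the water-history challenge, on the history average and in the interaction (edgeR adjusted p = 7.73e-05, 5.29e-07 and 0.000674), but no fold is given, because its W_W mean is below the 0.0292 CPM that 1 read is worth. F3H passed the low-count filter through its JA-history libraries alone, so its higher call on the history average carries no support from having passed. The anthocyanin glucosyltransferase UGT75C1 was at 1.52 ± 0.558, 2.78 ± 0.919, 4.92 ± 0.886 and 7.37 ± 2.47 CPM in the same order, and its interaction was not called (adjusted p = 0.646). Chalcone isomerase (TT5), which acts on the product of TT4, was at 5.0 ± 0.824 CPM in W_W, 8.1 ± 0.331 in W_JA, 12.7 ± 0.987 in JA_W and 8.9 ± 2.19 in JA_JA. It rose with water history (log2 0.70) and fell by 0.51 after JA history. Flavonol synthase FLS1 was at 2.07 ± 0.738, 4.14 ± 0.667, 14.7 ± 3.42 and 6.52 ± 1.44 CPM in the same order, and fell by 1.17 on the log2 scale in the JA-history challenge. In TT5 and FLS1 the highest group was thus JA_W. PAP1, a MYB activator of anthocyanin synthesis, was at 3.42 ± 0.841, 39.0 ± 10.4, 36.1 ± 8.14 and 63.7 ± 8.56 CPM, with ratios of 9.35 and 1.64, outside the window. Of the 21 flavonoid and anthocyanin genes tested, 13 rose and none fell with water history, against 13.9% and 12.9% of all genes tested. In the JA-history challenge 11 rose and 6 fell, against 15.4% and 16.5%. On the history average 18 were higher and 2 lower, against 35.7% and 32.4%. Their median history average was a log2 difference of 2.05, beside 0.04 over all genes tested. F3H, TT8, EGL3, MYB11 and MYB111, all among the 18, passed the low-count filter through JA-history libraries alone. Their higher calls carry no support from having passed, so the count and the median are not free of the filter.

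COR15A (AT2G42540, chromosome 2, 17710441 to 17712330, minus strand) encodes a chloroplast protein that protects membranes during freezing. Its W_W libraries held 83.9, 130, 201 and 210 CPM, and its W_JA libraries 502, 467, 899 and 451. Its JA_W libraries held 885, 1170, 839 and 877 CPM, and its JA_JA libraries 837, 1290, 1430 and 1050. W_JA replicate 3 (899) stood apart from the other 3 W_JA libraries and reached the JA_W range, while all W_W libraries lay below all others. The history average was a log2 difference of 1.79 ± 0.20 (edgeR adjusted p = 1.24e-06). AT1G16850, an uncharacterized protein, had its highest challenged water-history value in the same library: its W_JA values were 2.33, 2.4, 6.47 and 2.28 CPM. In W_W it stood at 1.12, 1.02, 1.38 and 1.22 CPM, in JA_W at 3.43, 5.98, 4.13 and 4.01, and in JA_JA at 3.79, 3.63, 4.28 and 4.03. JA_W replicate 2 was the highest JA_W library for both genes. Without W_JA replicate 3, AT1G16850 no longer met the rule, and it was then higher in JA_JA than in W_JA (log2 0.75, edgeR adjusted p = 0.00346), which it was not with all libraries (0.22, adjusted p = 0.558). These were the only members with the DRE core (GCCGAC or ACCGAC on either strand), and both windows of 250 bases are printed for that reason. COR15A lies at chr2:17712331-17712580 and AT1G16850 at chr1:5765799-5766048, both minus strand. Capitals mark 2 DRE cores and a G-box in COR15A, and a DRE core and AACGTG joined to an ABRE in AT1G16850.
COR15A: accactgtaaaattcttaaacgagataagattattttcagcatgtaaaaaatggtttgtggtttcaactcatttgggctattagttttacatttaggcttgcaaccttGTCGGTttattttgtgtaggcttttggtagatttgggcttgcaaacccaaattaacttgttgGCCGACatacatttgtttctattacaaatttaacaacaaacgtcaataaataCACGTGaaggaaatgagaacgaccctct
AT1G16850: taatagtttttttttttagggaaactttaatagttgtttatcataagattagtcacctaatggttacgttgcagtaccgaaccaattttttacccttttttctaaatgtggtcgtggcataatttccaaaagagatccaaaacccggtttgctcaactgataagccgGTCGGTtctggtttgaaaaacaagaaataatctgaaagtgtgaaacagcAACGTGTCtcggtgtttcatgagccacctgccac

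COR15B, the neighbouring copy of COR15A, was at 64.2 ± 12.7 CPM in W_W, 97 ± 28.3 in W_JA, 219 ± 30.8 in JA_W and 206 ± 45.7 in JA_JA. Its ratios were 1.38 and 0.882, so it was higher after JA history (log2 1.43 ± 0.15) without reaching the 2-fold rule; reads shared between these similar genes could be split between them. Of 23 cold and abscisic acid (ABA) response genes tested, 8 rose and 3 fell with water history, against 13.9% and 12.9% of all genes tested. After JA history 5 rose and 8 fell, against 15.4% and 16.5%. On the history average 9 were higher and 6 lower, against 35.7% and 32.4%. The median history average of that list was 0.03, beside 0.04 over all genes. CYP707A4, an ABA 8'-hydroxylase that breaks down ABA, was at 8.25, 6.68, 11.2 and 9.45 CPM in W_W, 21.2, 18.5, 20.4 and 24.0 in W_JA, 12.7, 13.1, 13.1 and 13 in JA_W, and 23.3, 15.2, 13.3 and 16.2 in JA_JA. Here JA_W lay above W_W and below W_JA without overlap, and JA_JA replicate 1 alone reached the W_JA range. The history average was 0.12 ± 0.11 and was not called (adjusted p = 0.364). Its relative CYP707A2 rose with water history (log2 0.79) and fell by 1.31 after JA history, while CYP707A1 rose in both.

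LOX3 (AT1G17420, chromosome 1, 5977323 to 5981521, plus strand) encodes a 13-lipoxygenase of JA synthesis and was the only member of the JA biosynthesis list. Its libraries held 56.3, 34.3, 41.4 and 42.3 CPM in W_W and 126, 160, 103 and 169 in W_JA. In JA_W they held 35.0, 48.6, 42.4 and 47.7 CPM, and in JA_JA 37.7, 29.3, 43.0 and 90.0. Unlike TT4 and COR15A, LOX3 had overlapping W_W and JA_W values, and all JA_JA libraries were below all W_JA libraries. JA_JA replicate 4 was the only JA-history library above 50 CPM. The history average was lower, at -0.74 ± 0.20 on the log2 scale (edgeR adjusted p = 0.00408). Under challenge the history difference was -1.48 ± 0.29, and without challenge it was -0.01 ± 0.28. The stretch before its start (chr1:5977073-5977322, plus strand) is shown for its TTGACT and AATATCT matches.
LOX3: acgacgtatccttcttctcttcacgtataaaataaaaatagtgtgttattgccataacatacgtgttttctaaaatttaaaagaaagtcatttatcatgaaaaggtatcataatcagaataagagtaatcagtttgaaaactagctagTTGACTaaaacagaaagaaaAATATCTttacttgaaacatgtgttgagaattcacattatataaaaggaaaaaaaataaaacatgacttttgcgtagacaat

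The other 13-lipoxygenases differed. LOX2 was at 2100 ± 532 CPM in W_W, 20400 ± 1370 in W_JA, 3900 ± 338 in JA_W and 25400 ± 3880 in JA_JA, and rose in both histories. LOX4 was at 35.8 ± 8.23, 47.1 ± 19.4, 13.6 ± 2.25 and 26.1 ± 5.22 CPM and was called higher only in the JA-history challenge (log2 0.94); its interaction was not called (adjusted p = 0.29). LOX6 rose in both, by 0.52 and 0.94. Of 13 JA biosynthesis genes tested, 12 rose with water history and 11 after JA history, against 13.9% and 15.4% of all genes tested, and none fell, against 12.9% and 16.5%. On the history average 6 of the 13 were higher and 6 lower, against 35.7% and 32.4%, with a median of 0.03. No member was found among the 13 JAZ genes, of which 11 and 10 rose, or among 10 outputs of the MYC branch, all of which rose in both histories. JAZ13, at 0.406 ± 0.292 CPM in W_JA, was too low to pass the rule with its offset. By edgeR it rose with water history (adjusted p = 0.000299), was not called after JA history (0.143) and had a lower interaction (0.0281).

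FMO GS-OX1 (AT1G65860) S-oxygenates the side chains of aliphatic glucosinolates. Its libraries held 6.44, 12.7, 13.4 and 14.6 CPM in W_W, 46.4, 35.7, 33.1 and 37.1 in W_JA, 39.2, 36.6, 43.6 and 31.1 in JA_W, and 62.5, 47.3, 46.5 and 36.5 in JA_JA. W_W stood apart below and the other groups overlapped. The history average was 1.01 ± 0.15 (adjusted p = 2.01e-05). Among its 4 relatives, FMO GS-OX3 was at 18.6 ± 6.86, 35.4 ± 3.99, 61.6 ± 8.5 and 53.7 ± 10.7 CPM, with ratios of 1.72 and 0.827. FMO GS-OX2 and FMO GS-OX4 rose in both histories, and FMO GS-OX5 was called in neither. Of the 29 aliphatic glucosinolate genes tested, 23 rose with water history and 8 after JA history, against 13.9% and 15.4% of all genes tested. None was lower in either, against 12.9% and 16.5%. On the history average 25 were higher and 2 lower, against 35.7% and 32.4%, with a median of 0.75.

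**Figure D2:**
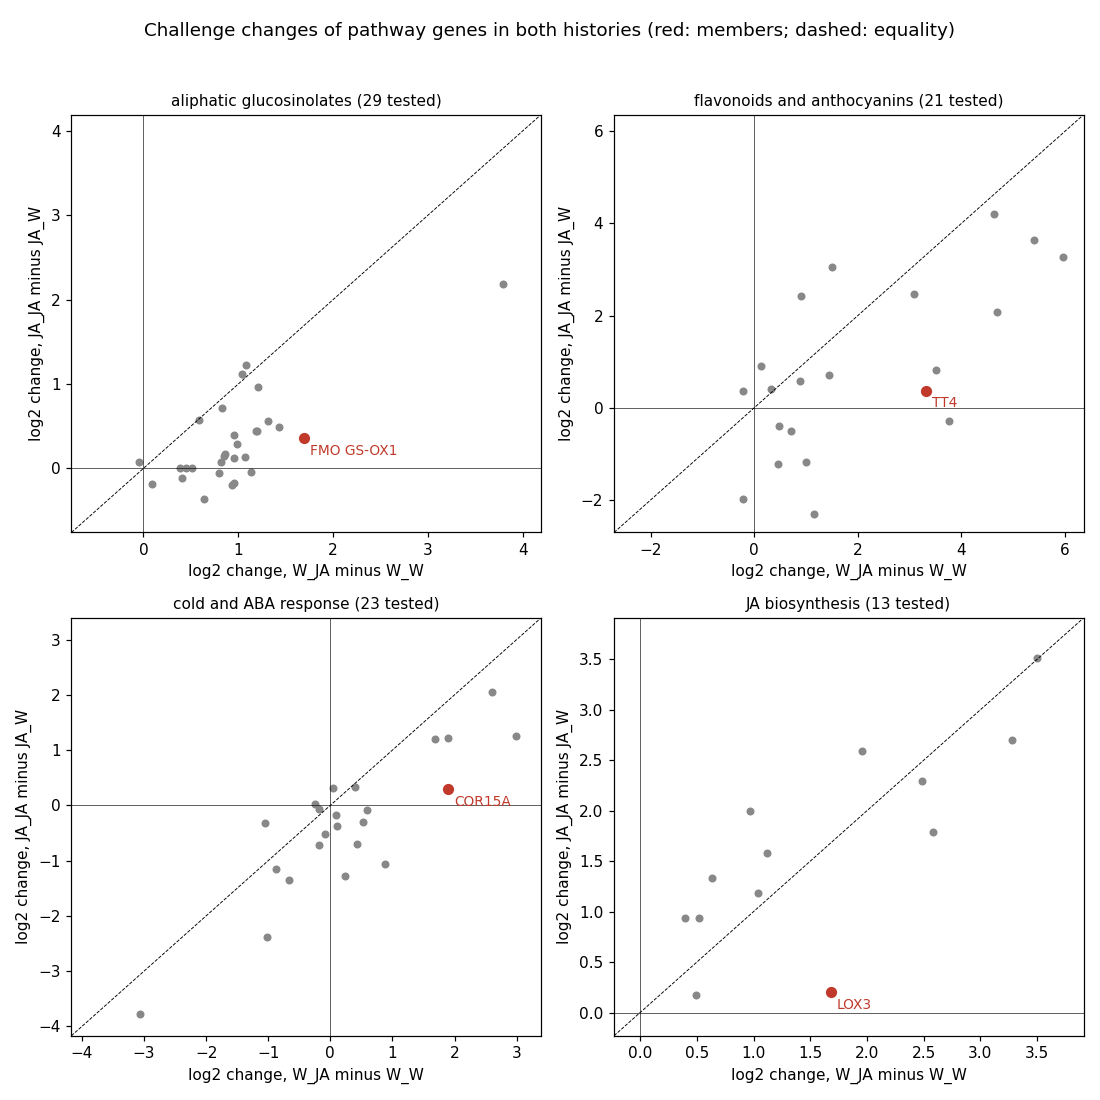
Each point is a gene of 1 of 4 pathway lists, with its log2 change in the water-history challenge on the horizontal axis and in the JA-history challenge on the vertical axis (edgeR), and the dashed diagonal marks equal changes. Members (red) lie near the horizontal line at 0; FMO GS-OX1 sits among other aliphatic glucosinolate genes below the diagonal, while LOX3 lies below most JA biosynthesis genes.

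Iron storage and transport genes followed. Ferritins are plastid shells that store iron. FER3 (AT3G56090, chromosome 3, 20813904 to 20816035, minus strand) was at 10.5, 15.3, 13 and 19.5 CPM in W_W, 28.3, 39.5, 39.6 and 30.2 in W_JA, 60.0, 55.5, 44.4 and 48.7 in JA_W, and 41.7, 64.6, 52.4 and 57.7 in JA_JA. Both JA-history groups lay above all W_JA libraries, and W_W lay below every other group. FER3 was higher after JA history by 1.246 ± 0.126 (log2, adjusted p = 3.66e-07). FER1 was at 82.9, 111, 137 and 87.7 CPM in W_W, 153, 365, 269 and 253 in W_JA, 276, 197, 159 and 152 in JA_W, and 203, 297, 264 and 292 in JA_JA. Its W_W values were all below the others, which overlapped. The history average of FER1 was 0.46 ± 0.17 (adjusted p = 0.0265), and it was not called in 9 of 24 alternative analyses, among them those without W_W replicate 1 (adjusted p = 0.0553), W_W replicate 4 (0.0534), W_JA replicate 1 (0.0529), JA_W replicate 1 (0.0617), JA_JA replicate 2 (0.0618), JA_JA replicate 3 (0.0506) and JA_JA replicate 4 (0.0593). FER4, a mitochondrial and plastid ferritin, was at 19.2 ± 3.2, 25 ± 4.21, 36.3 ± 3.22 and 45.0 ± 8.08 CPM; it was not called in either challenge and was higher on the history average (0.88 ± 0.10). FER2 stayed below the filter on low counts. The window before FER3 (chr3:20816036-20816285, minus strand) is shown for its AATATCT match and its CACGTGTC, in which a G-box and an ABRE overlap.
FER3: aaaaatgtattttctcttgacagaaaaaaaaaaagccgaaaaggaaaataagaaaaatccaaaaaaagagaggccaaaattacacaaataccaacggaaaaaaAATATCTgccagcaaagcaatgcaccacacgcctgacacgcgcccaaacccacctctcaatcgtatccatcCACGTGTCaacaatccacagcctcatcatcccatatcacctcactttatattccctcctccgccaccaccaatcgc

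SWEET17 (AT4G15920) is a fructose transporter of the vacuole membrane. It was at 24.2, 30.5, 32.9 and 40.5 CPM in W_W, 85.9, 87.0, 83.2 and 84.3 in W_JA, 85.9, 109, 98.9 and 105 in JA_W, and 96.8, 112, 123 and 117 in JA_JA. All JA_JA libraries were above all W_JA libraries, and the history average was 1.02 ± 0.09 (adjusted p = 6.25e-08). Its relative SWEET16 was at 1.14 ± 0.227, 5.86 ± 1.31, 4.04 ± 0.208 and 12.1 ± 1.5 CPM and rose in both histories. AT3G21670 (NPF6.4), of the nitrate and peptide transporter family, was at 59.5 to 106 CPM in W_W, 166 to 206 in W_JA, 178 to 219 in JA_W and 189 to 277 in JA_JA. PIP1;4, a plasma membrane aquaporin, was at 76.0 to 130, 207 to 286, 195 to 232 and 216 to 291 CPM. In both genes the W_W values lay below the other groups, which overlapped, and the history averages were 0.88 ± 0.11 and 0.60 ± 0.10. Among other PIP1 aquaporins, PIP1A rose in both histories (log2 0.95 and 0.97), while PIP1B was called in neither challenge.

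AXR3, an Aux/IAA repressor of auxin responses, was the only member whose annotation names a transcriptional regulator. It was at 7.28, 7.65, 8.28 and 12.1 CPM in W_W, 19.2, 24.0, 22.9 and 22.5 in W_JA, 26.5, 39.8, 31.9 and 37.0 in JA_W, and 31.3, 46.7, 45.8 and 43.7 in JA_JA. As with TT4 and FER3, every JA-history library was above every W_JA library. The history average was 1.43 ± 0.12 (adjusted p = 4.87e-08). Genes whose annotation holds transcription factor words made up 4.54% of the genes tested.

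Members of sugar and cell wall metabolism came next. GALS3, a synthase of the galactan side chains of pectin, was at 17.3, 17.8, 19.6 and 20.5 CPM in W_W, 42.1, 43.6, 42.3 and 42.2 in W_JA, 32.7, 54.3, 41.9 and 45.1 in JA_W, and 39.3, 41.0, 37.2 and 44.4 in JA_JA. The W_JA values spread least, and the JA-history values lay on both sides of them. The history average was 0.57 ± 0.08, and the JA-history challenge changed GALS3 by -0.10 ± 0.11, with a 95% interval from -0.35 to 0.14. Its relatives GALS1 and GALS2 fell in the JA-history challenge, by 0.58 and 0.48 on the log2 scale. BAM6, of the beta-amylase family of starch breakdown, was at 9.0 to 14.1 CPM in W_W, 27.3 to 32.8 in W_JA, 21.4 to 28.2 in JA_W and 23.1 to 34.6 in JA_JA. AT3G61490, a pectin lyase-like protein, was at 1.74 to 3.13, 3.81 to 7.09, 3.76 to 5.28 and 5.24 to 7.78 CPM. Both had W_W apart from the other groups, with history averages of 0.57 ± 0.10 and 0.59 ± 0.16. The beta-amylase CT-BMY, with ratios of 2.42 and 1.33, missed the window and rose in both histories.

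Among the less characterised members, AT2G16890, a UDP-glycosyltransferase, had the third largest ratio (4.70). It was at 0.948, 0.844, 1.05 and 1.07 CPM in W_W, 7.16, 4.83, 9.86 and 5.55 in W_JA, 4.32, 7.62, 5.61 and 5.31 in JA_W, and 8.9, 6.69, 4.11 and 6.76 in JA_JA. W_W lay well apart and the other groups covered one range; the history average was 1.248 ± 0.179 (adjusted p = 1.28e-05). RLP6, a receptor-like protein, was at 0.251, 0.384, 0.914 and 0.319 CPM in W_W, 2.91, 2.01, 2.54 and 3.02 in W_JA, 2.46, 2.36, 1.84 and 2.73 in JA_W, and 2.59, 3.91, 3.36 and 3.19 in JA_JA. It showed the same order, with a history average of 1.32 ± 0.19 (adjusted p = 1.41e-05). AT5G24155, an oxidoreductase family protein, was at 4.96 to 7.22, 12.4 to 22.1, 18.8 to 27.4 and 20.5 to 27.3 CPM, with a history average of 1.23 ± 0.12 (adjusted p = 2.37e-07). AT5G53750, a CBS domain protein, was at 2.59, 1.94, 2.3 and 3.36 CPM in W_W, 7.19, 12.8, 9.74 and 10.1 in W_JA, 6.78, 5.38, 5.55 and 5.01 in JA_W, and 6.32, 7.19, 7.64 and 9.78 in JA_JA. Here all JA_W libraries were below all W_JA libraries and above all W_W libraries. AT1G76240 (DUF241) and XBCP3, a papain-like cysteine protease, followed that order too, at 63.9 to 73.1 CPM in JA_W against 87.2 to 105 in W_JA for AT1G76240, and at 32.2 to 38.3 against 40.7 to 48.5 for XBCP3. AT5G54930, an AT hook protein, was at 4.18, 4.35, 3.82 and 3.01 CPM in W_W, 9.46, 7.27, 8.59 and 10.9 in W_JA, 5.06, 4.93, 4.31 and 3.67 in JA_W, and 5.97, 6.12, 4.96 and 6.56 in JA_JA. In it W_W and JA_W overlapped, and all JA_JA libraries were below all W_JA libraries. AT5G54130, a calcium-binding protein, and AT3G14395, an uncharacterized protein, had JA_W values of 25.5 to 33.2 and 4.25 to 6.89 CPM, above their W_W ranges of 12.3 to 17.5 and 1.76 to 3.17.

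DXPS1 and KTI1 were different in kind, because nearly all of their reads came from water-history libraries. DXPS1 is annotated as a 1-deoxy-D-xylulose 5-phosphate synthase, and KTI1 as a Kunitz-type trypsin inhibitor. DXPS1 stood at 0.0558, 0, 0 and 0.029 CPM in W_W, 0.351, 7.3, 1.54 and 2.11 in W_JA, 0 in all 4 JA_W libraries, and 0, 0, 0.0979 and 0.303 in JA_JA. Its 379 reads in W_JA against 3 in W_W gave a ratio of 138 (95% counting interval 47.0 to 674), and W_JA replicate 2 alone held 243 of the 379; the counting interval covers counting error only. Without that library the fitted log2 change fell from 6.86 to 5.79, and DXPS1 no longer met the rule. Its 12 reads in JA_JA came from replicates 3 and 4 alone (3 and 9 reads), against none in JA_W. Pooled over libraries, with 3 reads over the group as the floor, they gave a ratio of at least 4.29. That figure leaves out the spread between libraries, and edgeR did not call the change (log2 4.75 ± 3.02, adjusted p = 0.259). Its place in the window came from the 0.5 added to the CPM. KTI1 stood at 2.01, 0.409, 0.803 and 0.406 CPM in W_W, 0, 9.52, 8.14 and 2.99 in W_JA, 0.0277, 0, 0 and 0 in JA_W, and 0, 0.0316, 0.0979 and 0.0672 in JA_JA. W_JA replicate 1, with no read, lay below all W_W libraries, the only case among the members in which W_JA and W_W overlapped. In reads, JA_JA over JA_W was 6.44 for KTI1, from 6 reads against 1, with a counting interval from 0.781 to 296. KTI1 was lower on the history average, at -6.51 ± 1.1 (adjusted p = 0.000111; -7.3 without JA_W replicate 1), and DXPS1 was at -3.78 ± 2.24, which was not called (adjusted p = 0.153; -4.55 without JA_JA replicate 4). The call of KTI1 in the water-history challenge (log2 2.51, adjusted p = 0.0368) was lost without W_W replicate 2 (adjusted p = 0.0962), W_W replicate 3 (0.0878), W_W replicate 4 (0.0889), W_JA replicate 2 (0.106) or W_JA replicate 3 (0.0915). Both genes passed the filter on low counts through their water-history libraries alone, so their direction on the history average carries no support from having passed. With 1 read of KTI1 and 0 of DXPS1 in JA_W, their log2 sizes on the history average lie at the floor and are not read as folds.

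**Figure D3:**
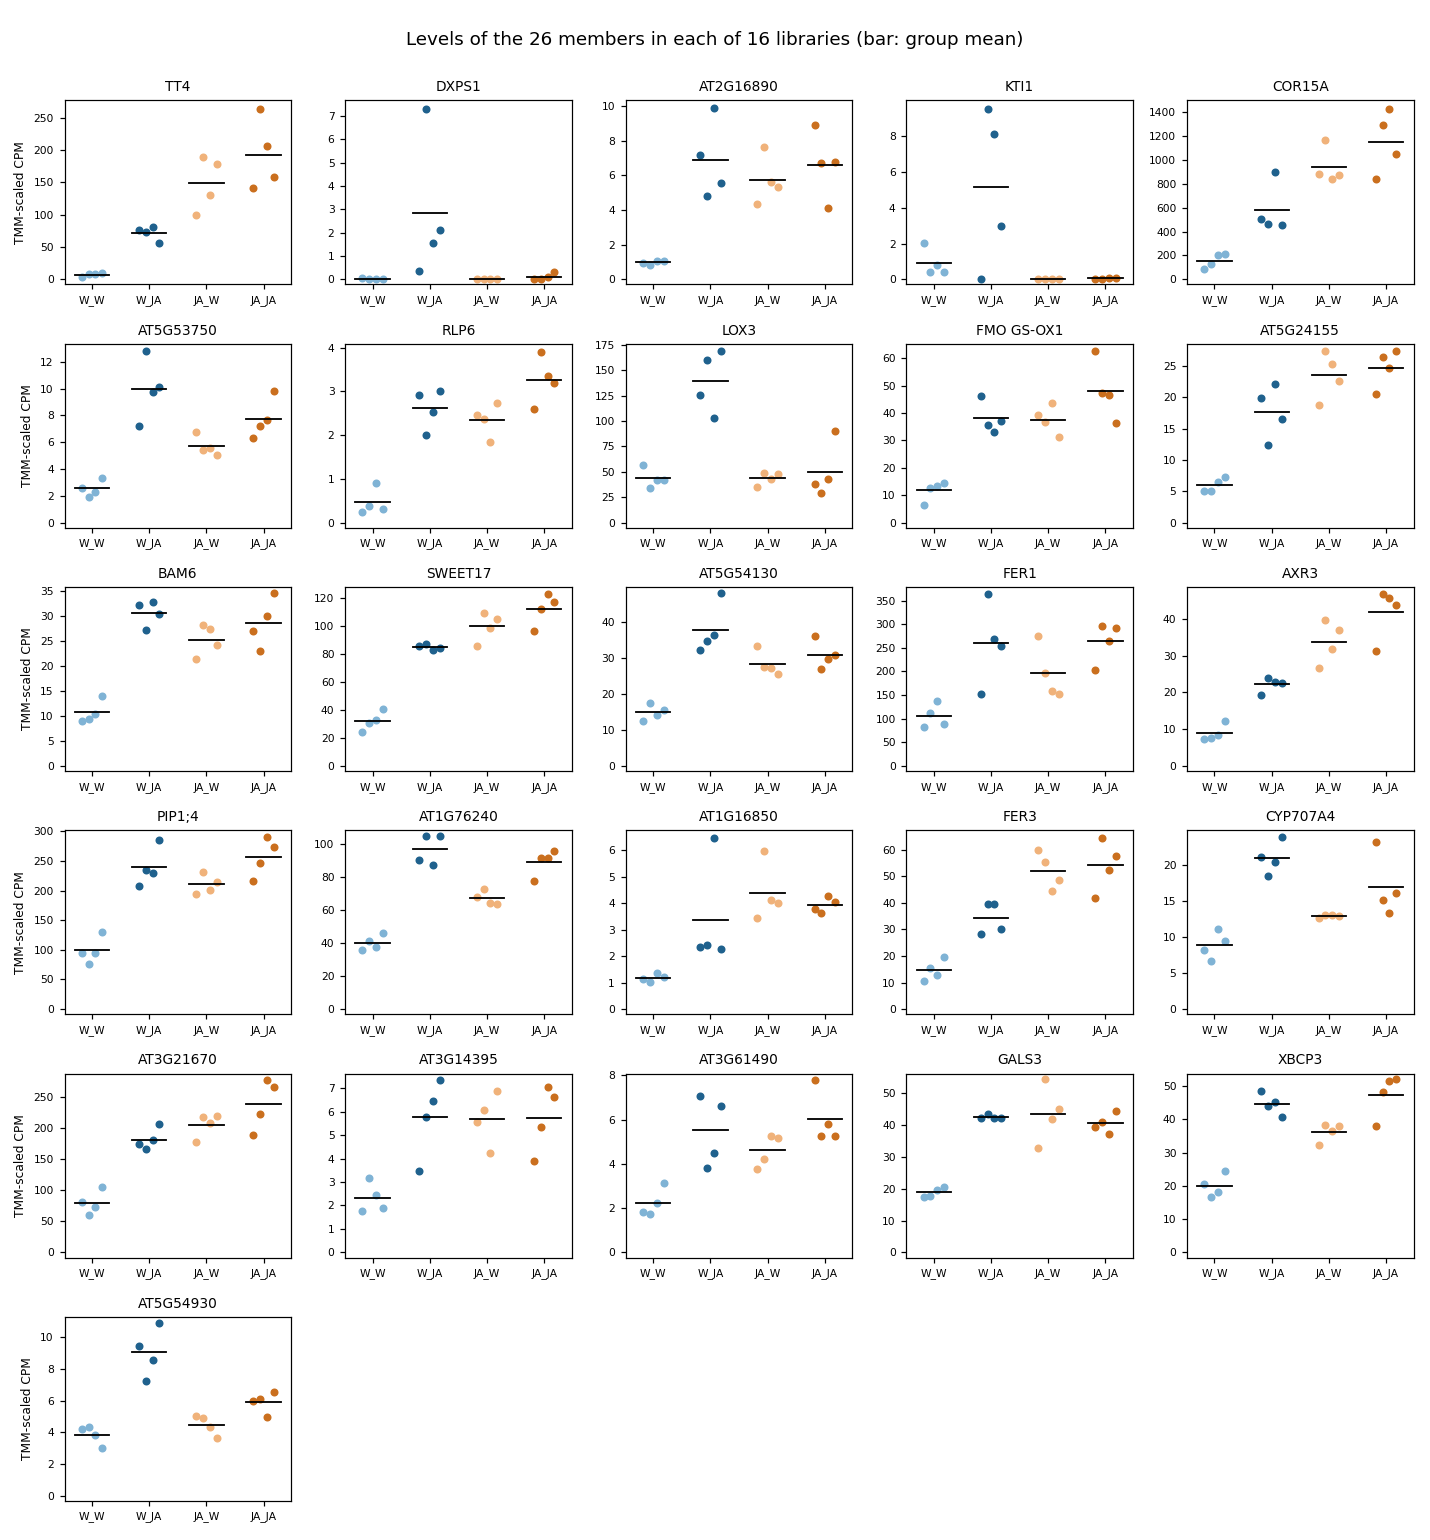
Each panel shows 1 member, with TMM-scaled CPM in the 16 libraries on the vertical axis (panels have their own scales, from 0), the 4 groups on the horizontal axis, points for libraries and bars for group means. In most panels W_W alone is low, while LOX3 and AT5G54930 are high in W_JA alone and DXPS1 and KTI1 are near 0 in both JA-history groups.

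The comparison that the rule did not use is the average history difference, the mean of JA_W and JA_JA minus the mean of W_W and W_JA on the log2 scale. It is orthogonal to both challenge ratios but comes from the same 16 libraries. A low W_W mean raises it and a high W_JA mean lowers it, and both favour the choice of a gene. These pulls cancel only where both groups spread alike, so the counts below are not free of the choice. Of the 26 members 21 were higher after JA history, against 35.7% of the 19224 genes tested, and 2 (LOX3 and KTI1) were lower, against 32.4%. KTI1 passed the low-count filter through water-history libraries alone, so its lower call carries no support. DXPS1, CYP707A4 and AT5G54930 were not called. Over all genes 6857 were higher and 6225 lower with TMM scaling, 5209 and 7439 with library totals alone, and 8105 and 5306 with upper-quartile scaling. The median log2 difference of the members was 0.59, beside 0.04 over all genes. Their median was 1.23 without challenge and 0.06 under challenge, so the average came mostly from the contrast with W_W. Among the 315 genes with both ratios at 2 or more, 48.3% were higher and 28.9% lower, with a median of 0.33. Among the 102 genes that met the mirrored rule, with a ratio of at least 2 after JA history and one within the same window with water history, 2.94% were higher and 88.2% lower, with a median of -1.23. The difference between these sets of genes was not tested. TT4, COR15A, AXR3, RLP6, FER3 and AT2G16890 had the largest positive differences.

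The rule fixed only the ratio within each history, not where the JA-history level lay. Without challenge 22 members were higher after JA history, against 33.8% of genes, and KTI1 was lower, against 31.1% (64.9% of genes were called in either direction). All 4 JA_W libraries were above all 4 W_W libraries in 22 members, against 30.7% of genes, and all were below in KTI1, against 28.7%. All W_JA libraries were above all W_W libraries in 25, against 12.5%. The median difference without challenge was 1.23, beside 0.05 over all genes. Under challenge 6 members (TT4, COR15A, AT5G24155, SWEET17, AXR3 and FER3) were higher after JA history, against 18.9% of genes, and 4 (DXPS1, KTI1, LOX3 and AT5G54930) were lower, against 21.2% (40.1% in either direction). The other 16 were not called, and the median was 0.06, beside 0.01 over all genes. AT5G24155 was not called higher under challenge without W_JA replicate 2 (adjusted p = 0.0977), W_JA replicate 4 (0.0753), JA_JA replicate 2 (0.0642), JA_JA replicate 3 (0.0513) or JA_JA replicate 4 (0.0583), and SWEET17 was not without JA_JA replicate 3 (0.0535). Of the 16 not called, AT3G21670 and AT1G16850 passed as higher, and AT5G53750, AT5G54130 and CYP707A4 as lower, in at least 1 of the fits without a single library. These contrasts share their W_W and W_JA libraries with the rule, and a low W_W mean both favours the choice of a gene and raises its difference without challenge. The lower calls of KTI1 and DXPS1 carry no support, because both passed the low-count filter through water-history libraries alone.

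**Figure D4:**
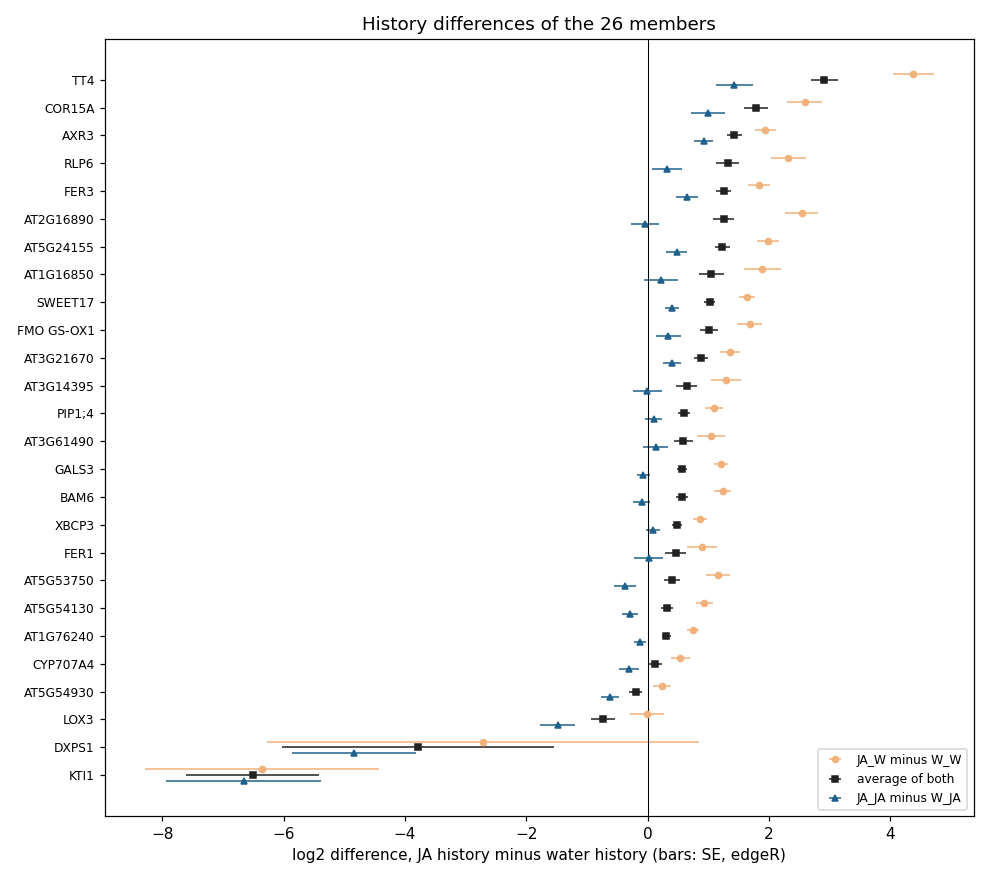
For each of the 26 members, ordered by the average, the horizontal axis gives the log2 difference of JA history minus water history without challenge (circles), under challenge (triangles) and averaged over both (squares), with SE bars from edgeR. Most circles lie to the right of 0 and most triangles near 0, while LOX3 has its circle at 0 and its triangle at -1.48, and DXPS1 and KTI1 lie far to the left with wide bars. The sizes of DXPS1 and KTI1 rest on few or no reads after JA history and are not read as folds.

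Set against the freshly challenged level, the JA_W mean was between 0% (DXPS1) and 209% (TT4) of the W_JA mean, with a median of 85.9%. In 18 of 26 members it lay between 50% and 150%. By the mean of JA_W and JA_JA, 10 members were at or above W_JA, 15 were between W_W and W_JA, and KTI1 was at or below W_W. The share of all genes was not computed for this median or these counts, so no trait of the members is read from them. Libraries of JA_W and W_JA overlapped in 16 members, all JA_W were above all W_JA in 3 (TT4, AXR3 and FER3), against 26.2% of genes, and all were below in 7, against 27.1%. JA_JA lay above JA_W without overlap in 2 (AT1G76240 and CYP707A4), against 16.2% of genes, and below it in none, against 17.3%. JA_JA lay above W_JA in 4 (TT4, SWEET17, AXR3 and FER3), against 14.3%, and below it in 3 (DXPS1, LOX3 and AT5G54930), against 18.4%.

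To see how far the choice holds in libraries it did not use, the rule was applied to replicates 1 and 2 alone, its genes were followed in replicates 3 and 4, and the roles were then swapped. The first choice gave 48 genes, 16 of them among the 26, and in replicates 3 and 4 their median ratios were 1.79 with water history and 1.09 after JA history. There 7 of the 48 met the whole rule, 21 had a water-history ratio of at least 2, 24 had a JA-history ratio in the window, and 46 had the larger ratio with water history. In those libraries 28 of the 48 rose in the water-history challenge by edgeR, against 5.81% of genes, 7 rose in the JA-history challenge, against 7.76%, and none fell, against 5.4%. The interaction was lower in 3, against 0.52%, with 29 at an unadjusted p under 0.05. The second choice gave 28 genes, 13 of them members, with median ratios of 1.9 and 1.05 in replicates 1 and 2. Of these 7 met the whole rule, 13 had a water-history ratio of at least 2, 14 had a JA-history ratio in the window, and 26 had the larger ratio with water history. In edgeR, which tested 27 of the 28, 16 rose with water history, against 4.61% of genes, 1 rose after JA history, against 6.96%, and 1 fell, against 6.17%. The interaction was lower in 4, against 0.304%, with 15 at an unadjusted p under 0.05. The history average, also in the libraries not used, was higher in 33 and lower in 6 of the 48, against 23.2% and 23.6% of genes, and higher in 17 and lower in 4 of the 27, against 26.4% and 27.6%. The ratio was thus larger with water history in 46 of the 48 and 26 of the 28 genes chosen. By the adjusted interaction test, however, only 3 of the 48 and 4 of the 27 were called. For the order of the ratios and the unadjusted p-values no share over all genes was computed, so no recurrence is read from them. Only 16 and 13 of the genes chosen were members, so these counts are not a test of the 26. The exact limits of the rule were met again by 7 genes in each direction.

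The 250 bases before the annotated start of each gene were searched on both strands, in the TAIR10.1 genome. A match describes the letters only. A G-box (CACGTG) was present in 6 of 26 members (23.1%: TT4, COR15A, AT1G76240, FER3, XBCP3 and AT5G54930), in 16.3% of the genes with both ratios at 2 or more, and in 6.49% of all 27443 windows. The related AACGTG was in 5 members (19.2%), 21.7% and 7.54%. AATATCT, the core of the evening element, was in 6 (23.1%), 10.5% and 10%, and the ABRE (ACGTGTC or ACGTGGC) was in 4 (15.4%), 6.71% and 6.39%. Each of these 4 ABRE matches overlaps a match already counted, a G-box in FER3 and AT5G54930 and an AACGTG in BAM6 and AT1G16850. The W-box (TTGACC or TTGACT) was in 6 (23.1%), 25.2% and 28.4%, and the DRE core (GCCGAC or ACCGAC) in 2 (7.69%), 9.27% and 7.09%. GCCGCC, which ERF factors bind, was in none of the members, 0.639% and 1.87%. In the printed sequences the G-box of TT4 starts 233 bases before the gene start, that of COR15A 28 and that of FER3 76. The DRE cores of COR15A start 142 and 80 bases before the start, and that of AT1G16850 83 bases before it. No test was made of these shares.

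Some members overlap a gene on the opposite strand, and the strandedness of the counting is not given in the sources used here, so reads of such pairs could be confused. FER1 overlaps the noncoding gene AT5G01595 over 1334 bases, which had 80, 68, 92 and 79 reads in the 4 groups. BAM6 overlaps AT2G32280 over 693 bases, which had 40, 23, 45 and 31 reads. AT5G54930 overlaps AT5G54920 over 63 bases, which had 2540, 2405, 2503 and 1953 reads. The overlaps of TT4, DXPS1 and XBCP3 involve genes with at most 16 reads in any group.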

How the data were processed

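Per the submitters' processing notes, the tools were HTSeq 0.9.1, STAR 2.6.1b and Trimmomatic 0.38, and the genome was TAIR10; settings and strandedness are not given in the sources used here. Each deposited table holds raw read counts per gene and CPM, which the authors made by dividing by library totals (recomputed to within 5.09e-11). The members were chosen on the deposited CPM. The counts were tested with edgeR 4.0.16 (R 4.3.3): filterByExpr (minimum count 10, minimum total 15) kept 19224 of 34262 genes, TMM scaling was applied, and 1 quasi-likelihood model with a mean per group was fitted to 16 libraries (12 residual degrees of freedom), with F-tests adjusted by Benjamini-Hochberg over genes at 0.05. Expression levels are TMM-scaled CPM. Data were simulated with 19224 genes, of which 50 were changed at each fold. For the history average 76% of genes changed 1.5-fold and 88% of those changed 2-fold were recovered. The shares were 52% and 82% for the JA-history challenge, 8% and 58% for the interaction, and 40% to 46% and 82% to 86% for the other 3 contrasts. In the real data 68.1% of genes were called on the history average, so these shares do not give the power of the tests here.

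The members and gene lists were chosen with earlier results of these data known. Every member is named, the genes given library by library following largest ratio, highest level, largest history difference, threshold neighbours, list membership and transcription factor annotation; relatives were picked after the members were known. Symbols and sequences came from RefSeq for TAIR10.1, which annotates 32548 of the identifiers; a promoter table named in the plan was not used here, and windows were cut from that genome. Alternatives were DESeq2 1.42.0, other scalings, filters, a replicate block, other rule settings, leaving out each library and, chosen after seeing the data, leaving out W_W replicate 4 and JA_W replicate 1 together. With 1 read worth about 0.0292 CPM, members under 1 CPM rest on few reads.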

Additional observations from a re-analysis of the deposited data

Results flagged for a closer look

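Library values that lay far from the other 3 of their group were found in 5 of 103 groups screened, where chance gives about 1 in 20. KTI1 had its only JA_W read in replicate 1 (0.0277 CPM). COR15A reached 899 CPM in W_JA replicate 3, against 451 to 502 in the others, and 1170 CPM in JA_W replicate 2, against 839 to 885. AT1G16850 reached 6.47 CPM in the same W_JA replicate 3, against 2.28 to 2.4. GALS3 was at 43.6 CPM in W_JA replicate 2, against 42.1 to 42.3, a small step within a narrow range.

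The challenge response differed between histories by the interaction test of edgeR in 22 members, which restates the rule that chose them and is no separate evidence. The interaction was a log2 difference of -2.95 for TT4, -2.59 for AT2G16890, -2.01 for RLP6, -1.66 for AT1G16850, -1.6 for COR15A and -1.53 for AT5G53750. It was -1.5 for AT5G24155, -1.47 for LOX3, -1.34 for FMO GS-OX1 and for BAM6, -1.31 for AT3G14395, -1.28 for GALS3, -1.24 for SWEET17 and -1.22 for AT5G54130. It was -1.19 for FER3, -1.02 for AXR3, -0.99 for PIP1;4, -0.97 for AT3G21670, -0.86 for AT1G76240, -0.85 for CYP707A4, -0.84 for AT5G54930 and -0.77 for XBCP3.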

How the results depend on the processing

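Of 262 recomputed counts, 5 differed from the reported one by more than 1.5 times. The rule kept 10 genes with a window from 0.9 to its reciprocal. In the JA-history challenge 4 members rose without W_W replicate 4 and JA_W replicate 1, an alternative chosen after seeing the data. Of genes chosen in replicates 1 and 2 the interaction was lower in 5 with library totals only and in 6 with TMM-scaled CPM in the rule. The cause was not tested.

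Leaving out 1 library at a time gave 22 to 36 genes by the rule, 20 to 21 members higher and 2 to 3 lower on the history average, 22 higher and 1 lower without challenge, 4 to 7 higher and 4 to 6 lower under challenge, 25 to 26 rises with water history, 2 to 4 rises after JA history (4 without JA_JA replicate 3) and 22 to 23 interactions. The genes kept by the rule included 19 of the 26 members without JA_W replicate 1, 20 without JA_JA replicate 1 and all 26 without W_W replicate 3. AT3G61490 met the rule in 8 of these 16 choices, and CYP707A4 in 11. TT4, AT5G53750, RLP6, FER1, AT3G14395 and AT5G54930 met it in 12, and the other members in 13 or more. Replicate numbers did not pair the libraries: correlations of same-numbered libraries ran from -0.332 to 0.339, 5 of 24 were over 0.1, and 7 of 48 best matches were to the own number. With the replicate block 21 members were higher and 2 lower on the history average.

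No history average of a member changed sign in 623 alternative fits of single genes; 11 lost their call and 4 gained one. With library totals alone the median log2 difference of all genes was -0.07 on the history average, -0.12 in the water-history challenge and -0.10 in the JA-history challenge, and under challenge 2437 genes were higher and 5015 lower after JA history, beside 3630 and 4080 with TMM. That scaling ended the calls of AT5G53750 (0.29, adjusted p = 0.0589), AT5G54130 (0.21, 0.125) and FER1 (0.35, 0.111). AT5G54930 was then lower (-0.31, 0.0346), and it was also lower without W_W replicate 4 (-0.25, 0.0444). DESeq2 called DXPS1 lower (-3.42, 0.0123), a size at the floor, with 0 reads in JA_W and 12 in JA_JA.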

Other observations

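Several gene groups that respond to JA or to seedling history held no member. Over all genes tested, 35.7% were higher and 32.4% lower on the history average. In the challenge 13.9% rose and 12.9% fell with water history, and 15.4% rose and 16.5% fell after JA history. Of 29 salicylic acid pathway genes tested, all 29 were lower after JA history on the average, 2 rose and 9 fell with water history, and 14 rose and 2 fell in the JA-history challenge. Of 8 ERF-branch outputs, 2 were higher and 6 lower on the history average. Among the 6, PDF1.2b, PDF1.2c and ERF1 passed the low-count filter through water-history libraries alone, so their lower calls carry no support from having passed. Of 18 circadian clock genes, 10 rose and 1 fell with water history, and 7 rose and 1 fell after JA history. By annotation words no member was a kinase (5.62% of genes tested), a peroxidase (0.26%), a glutathione S-transferase (0.239%) or a disease resistance protein (0.728%), while AT2G16890 and GALS3 were glycosyltransferases (0.447%) and CYP707A4 a cytochrome P450 (0.671%).

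Single libraries also decided calls of members in the contrasts used by the rule. The interaction of AT3G61490 was not called with all libraries (-0.91, adjusted p = 0.0509) and was called in 5 fits without 1 library, and that of FER1 (-0.88, 0.0882) was called without W_JA replicate 1 (-1.03, 0.03). In the JA-history challenge CYP707A4, AT5G53750 and AT5G54930 were each called higher in at least 1 such fit.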
